A study of Mus musculus with 4 samples.

Results

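Gpnmb-Trem2 lipid-associated macrophages of tumour-bearing mouse lung are described here: 534 cells out of 23730 kept cells in 4 single-cell libraries. They were chosen by raw counts of unique molecular identifiers (UMIs, each standing for 1 captured RNA molecule). A cell was kept with at least 200 detected genes and at most 10% mitochondrial UMIs. A kept cell was a member with at least 3 UMIs of C1qa, C1qb and C1qc together and at least 2 of Gpnmb and Trem2 together. It could hold no more than 2 UMIs of Arg1, 1 of Ace, Adgre4 and Treml4 (patrolling monocytes), 1 of Krt79, Ear1 and Fabp1 (alveolar macrophages) or 1 of the Cd3 genes (T cells), and none of Cd79a (B cells). The levels of these genes therefore describe the choice and are not results.

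All mice were B6 animals, of an age and number not given in the sources used here, that carried lung tumours from KP cells, a mouse non-small cell lung cancer model, given intravenously. The tumour cells were either wild type (WT) or knockout for the histone chaperone Asf1a (KO), so the edit was in the injected cells and not in the mice. Each kind of tumour was treated with control IgG or with an antibody that blocks the T cell checkpoint receptor PD-1 (clone 29F.1A12, 200 µg per mouse, 3 doses a week) for 1 week. Perfused whole lungs were digested, live cells were sorted by DAPI exclusion, and RNA was counted from the 3′ end with 10x chemistry, giving 1 library per group. The libraries are called WT IgG and WT anti-PD-1 for WT tumours, and, for knockout tumours, KO IgG and KO anti-PD-1. With 1 library per group nothing between groups could be tested. Intervals below are exact 95% intervals that cover counting error only, not differences between mice.

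Trem2 is a surface receptor for lipids, lipoproteins and apolipoprotein E that signals through the adaptor Tyrobp, and Gpnmb is a membrane glycoprotein made by macrophages with loaded lysosomes. Macrophages that take up much lipid, in fat tissue, atherosclerotic plaques, demyelinated brain and tumours, are known to express both together with lysosomal hydrolases, fatty acid binding proteins and lipid droplet proteins. The complement component C1q, made largely by macrophages, helps clear dying cells.

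The libraries held 16078095 to 22506737 UMIs, and the summed UMIs of the members were 1053395 to 1583419 per library. Members held a median of 11336 and 11503 UMIs in the WT libraries (IgG, then anti-PD-1) and 9455 and 7079 in the KO libraries, against 1247 to 2061 in all kept cells. In cells outside the members with at least 10 UMIs of Krt8, Krt18 and Epcam, Asf1a stood at 34.8 CPM (counts per 1000000 UMIs of the summed cells; 95% interval 26.9 to 44.1) and 32.6 (24.9 to 42.0) in the WT libraries. It was 9.47 CPM (6.19 to 13.9) and 8.60 (4.92 to 14.0) in the KO libraries. In the members, which are host cells, Asf1a was at 9.79, 8.21, 14.4 and 15.2 CPM. Every series of 4 values, here and below, gives the WT library with IgG, the WT library with anti-PD-1, the KO library with IgG and the KO library with anti-PD-1 in that order and, where it is a level, that unit.

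Members made up a like share of lung cells in all 4 libraries. Of the 5745 kept cells of WT IgG, 123 were members, or 2.14% (1.78 to 2.55). Of the 6285 of WT anti-PD-1, 139 were, or 2.21% (1.86 to 2.61). KO IgG gave 135 of 6023 cells, or 2.24% (1.88 to 2.65), and KO anti-PD-1 gave 137 of 5677, or 2.41% (2.03 to 2.85). The 4 intervals overlapped. The ratio of shares was 1.05 (0.814 to 1.35) for KO IgG against WT IgG and 1.09 (0.855 to 1.39) for the same comparison under anti-PD-1. Anti-PD-1 against IgG gave 1.03 (0.805 to 1.33) under WT tumours and 1.08 (0.843 to 1.38) under KO tumours. Each interval spans values on both sides of 1. The denominator moved with depth: among kept cells with at least 1000 UMIs the ratio of KO IgG to WT IgG was 1.48 (1.15 to 1.91), and that of KO anti-PD-1 to WT anti-PD-1 was 1.48 (1.16 to 1.89). All members passed that limit, while the KO libraries lost more of their other cells to it.

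Among the 1254 cells that met the C1q line and every exclusion other than that on Arg1, members were 41.7% (36.0 to 47.6), 44.0% (38.4 to 49.7), 45.0% (39.3 to 50.8) and 39.9% (34.7 to 45.3). The line on Arg1, an enzyme of arginine breakdown found in some tumour-infiltrating macrophages, kept out the most cells of the exclusions. Arg1 alone kept 66, 49, 23 and 17 cells outside, more in the WT libraries than in the KO libraries. With that line dropped, the share among kept cells was 3.29%, 2.99%, 2.62% and 2.71%, and the ratio of KO IgG to WT IgG turned to 0.797 (0.641 to 0.99).

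**Figure D1:**
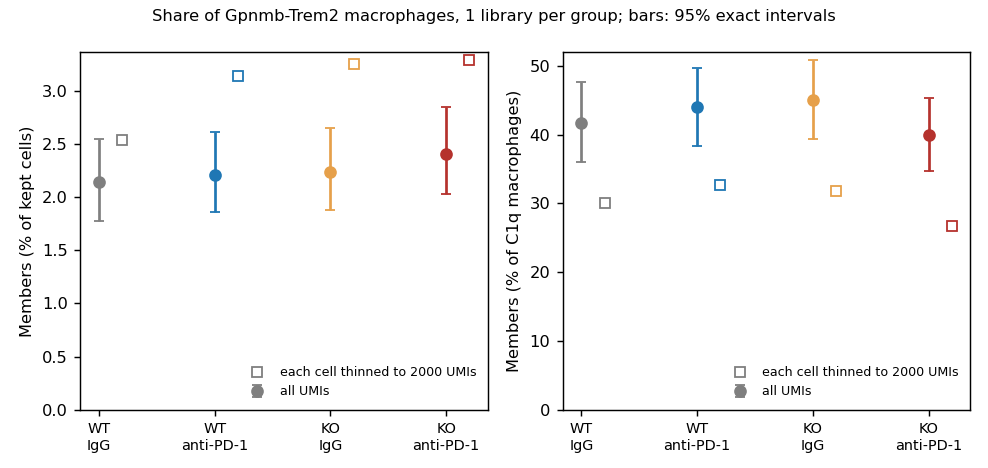
Percent of kept cells (left) and of C1q macrophages (right) that were members in each of the 4 libraries, with exact 95% binomial intervals. The points with intervals sit between 2.14% and 2.41% of kept cells and between 39.9% and 45.0% of C1q macrophages, with overlapping intervals. Open squares, without intervals, give the shares with each cell thinned to 2000 UMIs before the rule. They lie between 2.54% and 3.29% on the left and between 26.7% and 32.6% on the right.

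Most members were far above the lower bound on Gpnmb and Trem2. The median member held 24, 23, 17 and 13 UMIs of the 2 genes together, lowest in the library with the lowest depth. Of the 534 cells, 342 held at least 10 such UMIs, 407 held both genes, 105 held Trem2 without Gpnmb and 22 held Gpnmb without Trem2. C1q macrophages outside by this line alone, called low macrophages here, numbered 74, 82, 104 and 142. Of those, 54, 59, 70 and 99 held neither gene. Their median depth was 7204, 6875, 5058 and 4550 UMIs, below that of the members, and the part of depth in this split was not tested.

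**Figure D2:**
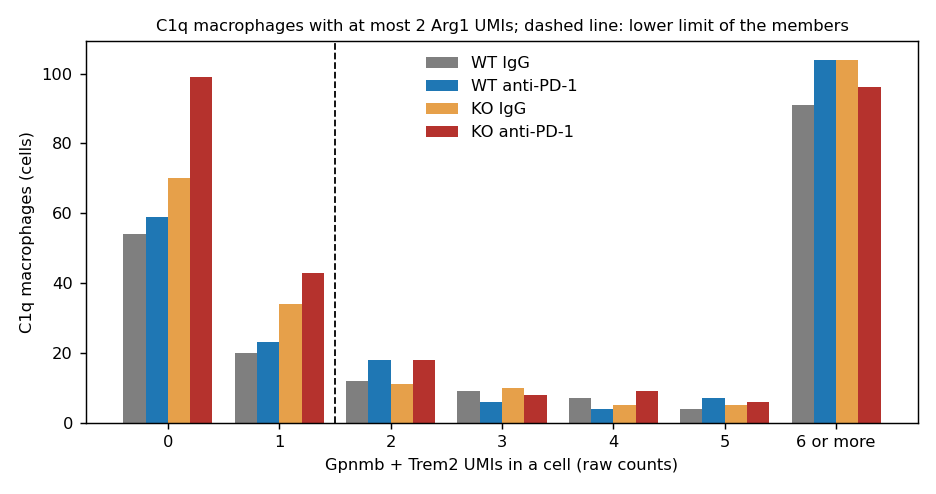
Number of C1q macrophages within the other lines of the rule (vertical axis) at each sum of Gpnmb and Trem2 UMIs (horizontal axis), per library, with the bound at 2. In each library the cells pile up at 0 and at 6 or more (91 to 104 cells), with 4 to 18 cells at each count from 2 to 5.

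Cells just inside and just outside the bound lay between the extremes, a description with no test. Apoe, which carries cholesterol in lipoproteins and was not in the rule, was at 3977 CPM in the 282 cells with a sum of 0 and at 7691 in the 120 with 1. It was at 12167 in the 92 members with 2 or 3, 21709 in the 100 with 4 to 9 and 31668 in the 342 with 10 or more. Fabp5, a fatty acid binding protein, went from 440.2 and 609.3 CPM outside to 957.1 just inside and 6570 at the top. Ctsd, the lysosomal protease cathepsin D, went from 252.1 and 417.9 to 778.6 and 6741. Ccr2, the chemokine receptor of incoming monocytes, stood at 463.8 and 614.9 CPM outside, 479.4 just inside and 50.8 at the top. So the cells with 2 or 3 UMIs were nearer to the low macrophages than to the core of the members in each of these genes.

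The label held against its markers. Gpnmb stood at 2976, 2403, 2809 and 2166 CPM in the members and Trem2 at 810.5, 769.2, 749.7 and 775.6, both fixed by the rule. The markers that the rule left free were high too. Apoe was at 27018, 26627, 28704 and 30574 CPM and Fabp5 at 6012, 5281, 5230 and 4707. Neutrophil markers summed to 728.7 to 884.8 CPM in the members against 12778 to 21018 in all kept cells, T and NK cell markers to 85.6 to 221.2, dendritic cell markers to 37.9 to 53.1 and fibroblast markers to at most 21.8. B and plasma cell markers summed to 811.4 to 1408 with Cd79a at 0 by the rule. Epithelial and tumour markers summed to 111.2, 65.7, 133.6 and 780.3 CPM. In KO anti-PD-1, 1 member with 56363 UMIs held 178 of the 229 Krt8 UMIs and 176 of the 249 Krt18 UMIs. Doublet scores of at least 0.25 were found in 0, 0, 0 and 1 members.

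Against the low macrophages of the same library, members were high in genes of lipid handling and of the lysosome. The rule made this contrast, so the values are a description and no test was run. Of 5931 genes with at least 20 UMIs in both kinds of cell together in each library, 173 were at least 2-fold higher in members in all 4 libraries (2.92%) and 86 at least 2-fold lower (1.45%). Of the 23 measured genes on a list for lipid-associated macrophages that left out the rule's own genes, 18 were among the higher ones. The list's median log2 ratio was 1.93, 1.72, 2.21 and 2.12, against -0.11, -0.07, -0.10 and -0.10 over all genes measured. The remaining 5 were Lpl, Tyrobp, Capg, Lgals1 and Itgax.

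The lipid genes named here act in fatty acid binding, lipoproteins, droplets and uptake. Fabp5 was 7.59 to 16.6 times as high in members, from 363.1, 424.5, 514.8 and 620.3 CPM in the low macrophages. Fabp4, its relative of fat cells and macrophages, was at 128.0, 209.0, 206.4 and 100.6 CPM in members and 0, 4.92, 0 and 3.92 in low macrophages. This was at least 25.7-fold higher. Apoe was 3.97 to 9.94 times as high. Plin2, a coat protein of lipid droplets, was at 740.6, 706.1, 1023 and 967.3 CPM, or 3.78 to 4.97 times as high. Cd36, a scavenger receptor for oxidised lipoproteins and fatty acids, was at 118.2, 81.5, 150.4 and 113.0 CPM and at least 4.63 times as high in each library. All 5 were higher in members in each library. Lipa, the acid lipase that frees cholesterol and fatty acids in lysosomes, was at 272.0, 288.0, 324.9 and 217.4 CPM, or 2.98 to 6.17 times as high.

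Downstream of lysosomal lipolysis the values were mixed. Npc1, which exports cholesterol from lysosomes, was at 109.1, 125.7, 120.8 and 94.9 CPM and 3.16 to 5.0 times as high, and Soat1, which esterifies cholesterol for storage, was 2.02 to 2.96 times as high. Yet only 3 of the 16 measured genes of cholesterol handling passed 2-fold in all 4 libraries, with list medians of 0.88, 0.66, 0.73 and 0.72. Pparg, the nuclear receptor for fatty acid derivatives, was at 25.2, 14.5, 18.4 and 21.8 CPM and at least 5.39 times as high. Lpl, the lipoprotein lipase, did not share the pattern, at 83.9, 92.2, 68.0 and 89.2 CPM and between 0.409 and 1.44 times the level of the low macrophages.

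Of 23 measured lysosomal genes not on the lipid list, 10 passed 2-fold in all 4 libraries: Lamp1, Grn, Psap, Hexa, Ctsa, Ctsk, Atp6v0d2, Atp6v1a, Tpp1 and Lgmn. The list's medians were 1.65, 1.41, 1.39 and 1.12. Atp6v0d2, a macrophage and osteoclast subunit of the proton pump that acidifies lysosomes, was at 421.7, 260.2, 516.9 and 402.5 CPM and at least 39.7 times as high. Ctsk, the collagen-degrading cathepsin K, was at 89.5, 84.0, 56.8 and 38.9 CPM and at least 19.1-fold higher. Ctsd was at 6670, 5076, 5385 and 4186 CPM and 14.1 to 23.9 times as high. Cathepsin B (Ctsb) was at 4202, 3959, 4294 and 3111 CPM, or 5.06 to 7.77 times as high. Psap, the precursor of the saposins that present lipids to hydrolases, was at 10280, 9877, 10183 and 9490 CPM, or 3.02 to 3.72 times as high. Gla, the hydrolase alpha-galactosidase A, was at 139.2, 138.3, 160.8 and 101.6 CPM against 28.0, 21.3, 27.1 and 35.3. Enzymes, membrane proteins and proton pump subunits of the lysosome were thus among the higher genes.

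Promoters of the higher lysosomal genes are shown because many carry the E-box CACGTG, the letters bound by the MiT/TFE family of lysosomal regulators. The longer palindrome TCACGTGA, which contains the E-box, is the core of the CLEAR element of lysosomal genes. Below are the 250 bases before the RefSeq start on GRCm38.p6, 5′ to 3′ on the gene's strand, with E-boxes and the longer core in capitals. They lie at chr7:142387828-142388077 (minus strand) for Ctsd and chrX:134601006-134601255 (minus strand) for Gla.
Ctsd: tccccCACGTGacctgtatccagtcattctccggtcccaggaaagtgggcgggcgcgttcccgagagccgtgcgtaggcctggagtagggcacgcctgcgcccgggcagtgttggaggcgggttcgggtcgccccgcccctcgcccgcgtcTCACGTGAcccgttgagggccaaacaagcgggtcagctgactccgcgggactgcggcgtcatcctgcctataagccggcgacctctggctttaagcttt
Gla: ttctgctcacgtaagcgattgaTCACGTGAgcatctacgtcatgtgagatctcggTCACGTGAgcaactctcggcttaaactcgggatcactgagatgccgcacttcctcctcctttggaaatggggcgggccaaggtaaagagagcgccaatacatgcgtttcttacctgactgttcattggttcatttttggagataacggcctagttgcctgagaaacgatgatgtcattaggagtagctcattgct
Counted from the start, the core lay at -99 to -92 in Ctsd and at -228 to -221 and -195 to -188 in Gla, and Ctsd had another E-box at -245 to -240. Of the 173 higher genes, 139 matched a RefSeq promoter. The E-box was in 29 of those (20.9%), the longer core in 8 (5.76%): Dpp7, Ctsa, Gla, Cln3, Ctsd, Osbpl8, Zfyve26 and Atp6v1a. On both strands of the same window, the E-box was in 11.4% and the longer core in 2.49% of the 4748 measured genes with a promoter. They were in 6.86% and 0.907% of all 27025 promoters. Of the 86 lower genes 68 had a promoter, and of those 5 had the E-box (7.35%) and 1 the longer core (1.47%). The Gpnmb and Trem2 windows held neither. A match describes letters only and was not tested as a binding site.

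Other genes with the highest ratios had varied roles. Syngr1, a vesicle membrane protein, was at 360.2, 313.2, 412.1 and 364.5 CPM and at least 38.0 times as high. Bhlhe41, a transcription factor of the helix-loop-helix family, was at 121.7, 99.8, 232.8 and 175.6 CPM and at least 26.0-fold higher. Pld3, a lysosomal nuclease, was at 619.6, 622.7, 678.5 and 665.5 CPM and 8.94 to 16.6 times as high. The growth factor Igf1 was at 63.6, 49.3, 43.2 and 34.2 CPM and at least 8.72 times as high, and the stress cytokine Gdf15 at 127.3, 140.8, 249.6 and 172.8 and at least 7.43 times. Cd63, a tetraspanin of late endosomes, was at 3746, 3415, 4600 and 4089 CPM, or 6.88 to 11.4 times as high. The same rule named Lhfpl2, Cdo1, Clec1b and Cd200r4. Ferritin chains, which store iron, were higher as well: Fth1 at 27174, 28707, 31415 and 31095 CPM (2.55 to 3.34 times) and Ftl1 at 22038, 20040, 24341 and 22770 (2.89 to 3.72 times). With Ncoa4, the receptor that delivers ferritin to lysosomes, 3 of 9 iron genes passed.

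Most genes of Trem2 signalling did not reach 2-fold. Tyrobp, the adaptor that carries the signal, was at 3549, 3605, 3794 and 3902 CPM, only 1.35 to 1.49 times the level of the low macrophages. Of 14 measured genes of Trem2 signalling, Ms4a7 alone passed, at 302.8, 429.5, 247.2 and 317.1 CPM and 3.52 to 4.94 times as high. Among 17 genes of complement and the uptake of dying cells, 3 were higher and 1, the properdin gene Cfp, lower. The 3 take part in uptake. The uptake receptor Mertk was 2.31 to 3.30 times as high, Cd93 at least 5.42 times, and Mfge8, which bridges dying cells to phagocytes, at least 2.41 times.

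Lower in members were 3 of 10 monocyte genes and 2 of 9 MHC class II genes. Ccr2 was at 144.1, 138.9, 134.4 and 88.3 CPM against 490.8, 527.7, 679.2 and 374.8 in low macrophages. Plac8, another monocyte gene, was at 136.4, 133.3, 24.8 and 220.2 CPM against 752.6, 1352, 578.1 and 1856. S100a6 was the third monocyte gene at least 2-fold lower in all 4 libraries, while Lyz2, lysozyme, was higher. The 9 MHC class II genes, which present peptides to CD4 T cells, had medians of -1.08, -0.63, -1.47 and -1.11, but only H2-DMb2 and H2-Oa passed 2-fold in every library. H2-Aa was at 4574, 6739, 4467 and 5005 CPM against 7149, 9186, 8245 and 7160. Its ratio of 0.542 to 0.734 was short of 2-fold. None of 19 MHC class I genes passed in either direction, and their medians were -0.05, 0.04, 0.23 and 0.03. Their summed level, which the most abundant genes weigh on most, was 15300, 18333, 14600 and 16206 CPM in members against 9916, 13410, 8026 and 9861. The interferon-gamma list had medians of -0.76, -0.73, -0.76 and -0.72, with 0 of 20 genes higher and 1 lower, and Il1b, an inflammatory cytokine, was at 1026, 1171, 904.2 and 977.8 CPM against 2982, 2668, 3306 and 2328.

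The most reduced genes by the naming rule were Rbp4, Krt8, Wfdc2, Lgals2, Ccl17, Plac8, Hes1, H2-DMb2, Krt18 and Ltb4r1, each at least 4.36 times lower. The keratins among them are epithelial, and at least 3 UMIs of Krt8, Krt18 and Epcam were found in 21 of the 402 low macrophages and 8 of the members. One low macrophage of KO anti-PD-1 held 1573. Without all these cells, 170 genes were higher and 89 lower, with 150 and 68 shared with the lists above.

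C1q macrophages with at least 3 Arg1 UMIs (98, 95, 61 and 64 cells), under the same other exclusions and with any count of Gpnmb and Trem2, formed a second comparison. Of 5414 genes measured, members were at least 2-fold higher in all 4 libraries for 131 (2.42%) and lower for 132 (2.44%). On the list for lipid-associated macrophages 11 of 23 genes were higher and none lower, with medians of 1.40, 1.43, 0.97 and 1.75 against -0.02, -0.07, -0.06 and -0.03 over all genes. Apoe was 2.03 to 3.21 times as high as in Arg1 macrophages, Fabp5 3.19 to 21.9 times and Ctsd 2.16 to 8.73 times. The smallest of these ratios for Fabp5 and Ctsd fell in KO IgG, where the Arg1 macrophages had the most Gpnmb, 525.7 CPM against 129.5, 106.1 and 27.6 in the other libraries. Cd36 was at 19.6, 9.54, 15 and 5.51 CPM in Arg1 macrophages and at least 6.04 times as high in members. Chchd10, a mitochondrial cristae protein, was at 193.0, 137.7, 219.2 and 171.8 CPM against 19.6, 16.7, 30.0 and 19.3. The glutathione transferase Gstm1 was at least 4.60 times as high, and Slamf7, a receptor of the SLAM family, at least 4.0 times. The rule also named Cdo1, Tusc1, Cd200, Osbpl3, Bhlhe41 and Pianp on the higher side.

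Glycolytic, matrix and chemokine genes were lower in members than in Arg1 macrophages. Of 18 genes of hypoxia and glycolysis, 8 were lower in all 4 libraries: Tpi1, Pgk1, Eno1, Ldha, Slc16a3, Bnip3, Vegfa and Ero1l. Ldha, lactate dehydrogenase, was at 326.6, 375.1, 343.3 and 422.4 CPM against 1228, 1039, 906.2 and 1146. Fn1, the matrix protein fibronectin, was at 241.3, 172.4, 193.6 and 213.6 CPM against 2957, 2398, 2443 and 2907, or 12.3 to 13.9 times lower. Thbs1, thrombospondin 1, was at 290.9, 181.9, 155.2 and 223.1 CPM against 2254, 1661, 2188 and 2312. Vcan, the proteoglycan versican of monocytes, was at 4.90, 1.26, 2.40 and 1.90 CPM against 144.7, 84.6, 130.2 and 143.3. Prtn3, Ifitm6, Ccl24, Ankrd37, Timp1 and Ltb4r1 were also named. Counts were 7 of 15 chemokines, 5 of 15 inflammatory genes and 6 of 11 monocyte genes lower. Spp1, osteopontin, did not separate them, at 1367, 1896, 2656 and 2017 CPM against 2133, 2500, 2653 and 2218.

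**Figure D3:**
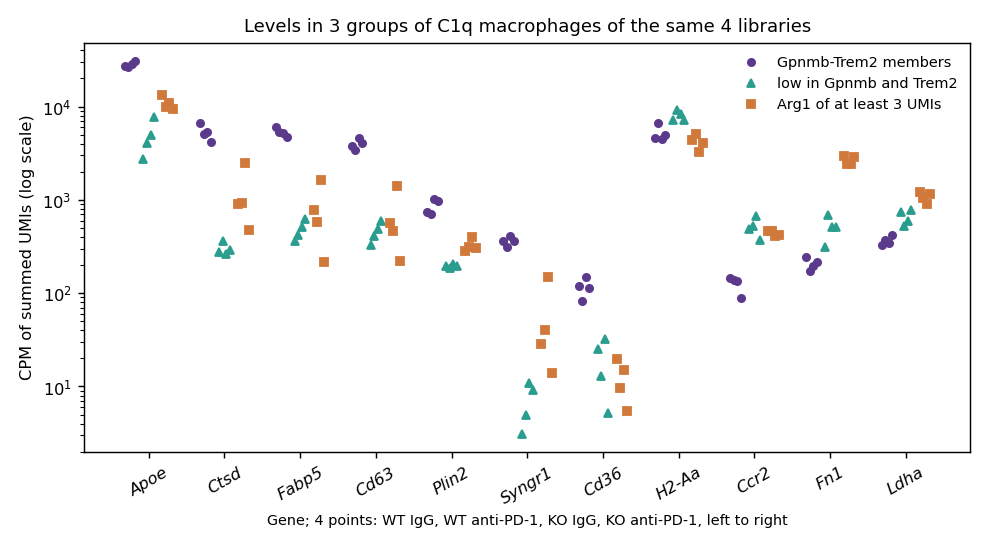
Level of 11 genes (CPM, log axis) in members, low macrophages and Arg1 macrophages, 1 point per library. Apoe, Ctsd, Fabp5, Cd63 and Syngr1 sit highest in members in each library, Ccr2 and H2-Aa are below the low macrophages, and Fn1 and Ldha are below the Arg1 macrophages.

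Alveolar macrophages, which also live on surfactant lipid, were told apart from members by their own markers. Only 9, 28, 7 and 24 cells carried the Krt79, Ear1 and Fabp1 line, so their levels rest on few cells. Chil3, a chitinase-like protein, was at 262.3, 409.2, 860.2 and 613.3 CPM in members and 8753, 8692, 22350 and 13405 in alveolar cells. Lpl was at 887.1, 1080, 775.8 and 640.3 CPM in alveolar cells, and so higher there than in members in each library. Siglecf was at 4.90, 1.89, 2.40 and 5.70 CPM in members against 10.7, 64.2, 89.5 and 73.5. Some genes named above were shared with alveolar cells. Atp6v0d2 stood there at 395.4, 630.5, 1015 and 356.9 CPM and Ctsk at 320.6, 519.6, 686.3 and 293.9, near or above the members. C1qa, a gene of the rule for members but not for alveolar cells, was at 0 to 21.4 CPM in alveolar cells. Its level of 1547, 2174, 1127 and 1436 CPM in members describes the choice.

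Members with both genes and members with Trem2 alone differed from each other in the same genes. Trem2 without Gpnmb was found in 26, 28, 25 and 26 cells and both genes in 94, 106, 103 and 104. Median depth was 8262, 7844, 6667 and 4917 UMIs with Trem2 alone and 12389, 12538, 10321 and 8250 with both genes. The part of depth in this split was not tested. Fabp5 was at 6887, 6094, 6090 and 5094 CPM in cells with both genes and 1017, 649.0, 888.0 and 1121 in cells with Trem2 alone. Ctsd was at 7709, 5878, 6290 and 4599 against 1296, 765.8, 775.6 and 795.2. Fabp4 was at 151.0, 249.7, 247.0 and 119.2 CPM with both genes and at 0 in each library with Trem2 alone. Apoe, high in both, was at 28979, 29418, 31087 and 32689 against 17322, 12417, 17912 and 20010. Spp1 was at 1531, 2200, 3150 and 2212 CPM against 189.2, 363.4, 303.5 and 600.0.

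Some monocyte and macrophage genes were higher in the cells with Trem2 alone. Ccr2 was at 83.4, 67.9, 69.7 and 36.3 CPM with both genes and 501.4, 527.8, 500.2 and 441.0 with Trem2 alone. H2-Aa was at 3761, 6242, 3515 and 4434 against 9134, 9769, 9150 and 8219. The mannose receptor Mrc1 was at 114.3, 84.5, 93.0 and 48.8 against 293.3, 294.2, 174.2 and 180.7. Pf4, a chemokine of platelets and resident macrophages, was at 149.3, 99.6, 16.5 and 15.9 against 894.0, 177.4, 331.6 and 571.1. Each of these 4 genes was lower with both genes in every library. The monocyte gene Ly6c2 did not follow, at 50.1, 52.0, 51.3 and 45.4 CPM with both genes against 23.7, 21.6, 5.62 and 65.1. Ms4a7 was mixed, at 313.7, 476.0, 241.1 and 309.9 against 255.4, 186.0, 269.8 and 404.8. Tyrobp was close, at 3681, 3743, 3921 and 3943 CPM against 2890, 2816, 3220 and 3803. Gpnmb helped to choose the members, so this split is a description too.

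Between the 4 libraries the list of lipid-associated genes hardly moved in members. Its summed level was 83547, 82677, 89671 and 84790 CPM in members, against 16800 to 23401 in low macrophages and 28432 to 42429 in Arg1 macrophages. Members of each library had passed the same bound on Gpnmb and Trem2, and Apoe, Fabp5 and Ctsd rose with that sum. The rule thus bears on how far the list could move, and its part was not tested. Median log2 ratios of the list were 0.14 for KO IgG against WT IgG, -0.05 for KO anti-PD-1 against WT anti-PD-1, -0.05 for anti-PD-1 against IgG under WT tumours and -0.15 under KO tumours. At 1.5-fold, 2 of 23 genes were higher and 0 lower, 1 and 1, 1 and 0, and 0 and 1 in those comparisons. The share of all measured genes past 1.5-fold was 7.24% higher and 8.87% lower for KO IgG against WT IgG, and 10.2% and 14.6% for the same genotypes under anti-PD-1. Shares were 7.23% and 7.12% for anti-PD-1 against IgG under WT tumours, and 9.20% and 13.4% under KO tumours. The list's counts were near or below the share over all genes. The 23 lysosomal genes had medians of -0.04, -0.20, -0.02 and -0.18, with no more than 1 gene past 1.5-fold in a direction. Per cell, the sum of the lipid list had medians of 76842, 79997, 88047 and 84794 CPM.

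**Figure D4:**
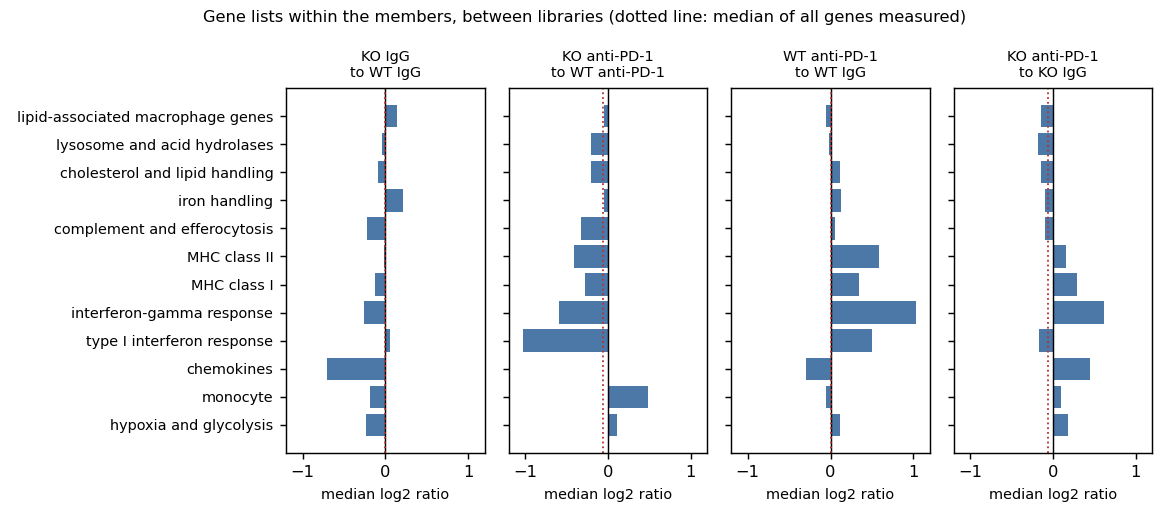
Median log2 ratio of 12 gene lists in members (horizontal axis) for the 4 pairs of libraries, with the median of all measured genes as a dotted line. The lipid-associated and lysosomal lists stay between -0.20 and 0.14, while the interferon-gamma list lies at 1.03 and 0.61 for anti-PD-1 against IgG and at -0.26 and -0.59 for KO against WT.

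Under WT tumours, members from the anti-PD-1 library had higher interferon-gamma genes than those from the IgG library. Interferon-gamma, released by T and NK cells, acts on macrophages to switch on chemokines for T cells, guanylate-binding proteins and MHC genes. Of 26 measured genes on the list, 17 were at least 1.5-fold higher and 0 lower, with a median of 1.03 against 0.00 over all genes. Of all genes measured, 7.23% were at least 1.5-fold higher and 7.12% lower. A 2-fold ratio was reached upward by 148 of 7695 genes (1.92%) and downward by 134 (1.74%), and 11 of the higher ones met every line of the naming rule. Of these 11, 5 were on the interferon-gamma list.

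Cxcl9, the chemokine that draws CXCR3-bearing T cells, was at 50.4, 282.9, 23.2 and 49.4 CPM, highest in WT anti-PD-1. Its ratio there to WT IgG was 5.62-fold, or 2.49 on the log2 scale (2.13 to 2.87). Ly6i, a surface protein whose close relatives make its counting uncertain, was at 15.4, 123.2, 9.60 and 54.1 CPM, with 8.0-fold between the WT libraries, or 3.0 in log2 (2.36 to 3.71). Gbp2, a GTPase that attacks vacuoles of intracellular microbes, was at 38.5, 136.4, 23.2 and 59.8 CPM, or 3.55-fold between the WT libraries (log2 1.83, 1.39 to 2.28). Its relative Gbp5 was at 4.90, 22.7, 4.80 and 11.4 CPM, or 4.64-fold (log2 2.22, 1.03 to 3.63). Il18bp, the secreted inhibitor of interleukin 18, was at 35.0, 96.0, 25.6 and 68.4 CPM, or 2.75-fold (log2 1.46, 0.99 to 1.95). Complement factor B (Cfb) was at 39.2, 102.3, 40.0 and 57.0 CPM. WT anti-PD-1 was highest for each of these 6 genes.

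Irf1, a transcription factor of this response, was at 18.9, 37.9, 16.8 and 38.9 CPM, higher in the anti-PD-1 library of each pair. Tap1, which loads MHC class I, was at 46.2, 91.6, 33.6 and 75 CPM. Of the MHC class II genes, 4 of 9 were past 1.5-fold, with H2-Ab1 at 5335, 8377, 5567 and 6325 CPM and Cd74, the chain that guides class II, at 12759, 18263, 12764 and 14144. Of MHC class I genes, 6 of 19 were. The type I interferon list had 8 of 18 genes higher and 0 lower, a median of 0.50. With cells thinned to 2000 UMIs only 3 of its genes could be measured, and the median was -0.19 with 0 higher and 1 lower. Named higher genes outside interferon were the growth factor gene Pdgfb, Inhba (a subunit of activin) and the copper transporter Slc31a1, beside Gbp6 and Iigp1. Named lower genes were Polr1a, Atg2a, Atf5, Pf4 and the peptide transporter Slc15a2, at 37.1 CPM with IgG and 13.9 with anti-PD-1.

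Promoters of Gbp2 and Gbp5 are printed because the list shares motifs of interferon signalling. They are the 250 bases before the RefSeq start on GRCm38.p6, 5′ to 3′, at chr3:142620413-142620662 (plus strand) for Gbp2 and chr3:142496684-142496933 (plus strand) for Gbp5. Capitals mark the ISRE-type motif (GAAA, any 2 bases, GAAA), bound by interferon-regulated factors, and the GAS-type motif TTCNNNGAA of interferon-gamma targets, on either strand.
Gbp2: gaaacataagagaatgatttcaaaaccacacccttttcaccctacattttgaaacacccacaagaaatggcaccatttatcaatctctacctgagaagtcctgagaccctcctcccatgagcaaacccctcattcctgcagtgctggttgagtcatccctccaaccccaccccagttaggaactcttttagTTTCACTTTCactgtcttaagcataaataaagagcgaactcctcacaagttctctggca
Gbp5: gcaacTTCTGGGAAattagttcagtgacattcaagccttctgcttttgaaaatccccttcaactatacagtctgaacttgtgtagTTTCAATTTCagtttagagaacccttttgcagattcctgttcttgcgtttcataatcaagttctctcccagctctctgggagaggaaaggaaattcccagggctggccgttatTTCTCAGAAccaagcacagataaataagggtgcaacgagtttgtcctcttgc
The ISRE-type match lay at -59 to -50 in Gbp2 and -165 to -156 in Gbp5, and the GAS-type matches in Gbp5 at -245 to -237 and -52 to -44. Of the 19 list genes with a promoter (of 30), 10 held the ISRE-type motif (52.6%) and 8 the GAS-type (42.1%). Over all 27025 promoters the shares were 3.46% and 8.13%. Of the 148 genes at least 2-fold higher in WT anti-PD-1, 117 had a promoter, and 13 of those held the ISRE-type motif (11.1%), against 3.52% of 6134 measured genes with one. The GAS-type motif was in 10 of the 117 (8.55%), against 6.98% of the measured genes. The Cxcl9 window held none of the motifs searched. These are matches of letters and were not tested as sites.

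Members of a library differed widely among themselves. The sum of the interferon-gamma list per member had medians of 1146, 1536, 996.9 and 1238 CPM, and the 90th percentile was 2485, 5758, 1818 and 2847. The highest single members were at 6905, 15504, 16953 and 7038 CPM. WT anti-PD-1 thus stood apart more in its upper tail than in its median. Low and Arg1 macrophages of the WT anti-PD-1 library were also above those of WT IgG, with list medians of 0.77 (16 of 24 genes at 1.5-fold) and 0.72 (16 of 25), so the pattern was not limited to the members.

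**Figure D5:**
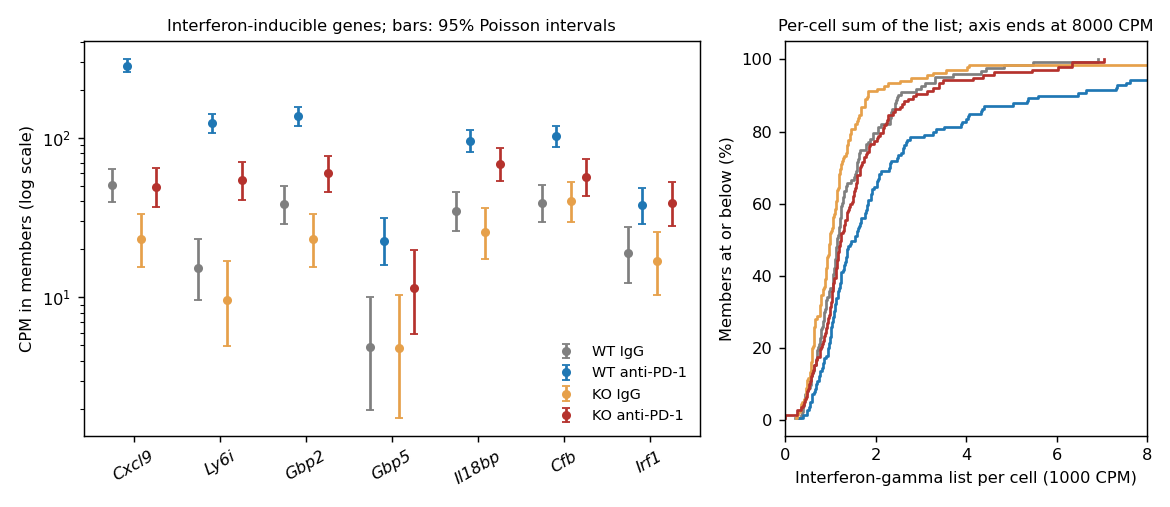
Left, level of 7 genes of interferon response and complement in members of each library (CPM, log axis), with 95% Poisson intervals as bars. Right, cumulative share of members by their summed CPM of the interferon-gamma list: the WT anti-PD-1 curve lies to the right of the others, with a median of 1536 CPM against 996.9 to 1238.

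Under KO tumours the direction for interferon-gamma genes was the same, with a lower list median over fewer measured genes. With a minimum of 10 UMIs the median was 1.05 over 27 genes under WT tumours and 0.88 over 25 under KO tumours. The difference between the comparisons was not tested. Of 20 list genes measured, 10 were at least 1.5-fold higher with anti-PD-1 and 2 lower, with a median of 0.61 against -0.06 over all genes. Of all genes measured, 9.20% were at least 1.5-fold higher and 13.4% lower. Low macrophages had 9 of 21 list genes higher and 2 lower, a median of 0.38, and Arg1 macrophages 15 of 16 higher, a median of 1.12. Between the WT libraries those medians were 0.77 and 0.72. In members the 2-fold lines were passed by 241 of 7110 genes on the higher side (3.39%) and 266 on the lower (3.74%). Ly6i was 5.64-fold higher (log2 2.49, 1.58 to 3.53), and Il18bp 2.67-fold (log2 1.42, 0.80 to 2.07). C3, the central complement protein, was at 28.0 and 64.6 CPM, or 2.31-fold. Cxcl9 was at 23.2 and 49.4 CPM. Cxcl10, on the same list, went the other way, at 36.4, 111.8, 70.4 and 3.8 CPM, with the 88 UMIs of KO IgG in 5 cells. Beside this, 4 of 4 measured T and NK cell markers (median 1.59) and 5 of 5 epithelial and tumour markers (median 3.34) were at least 1.5-fold higher in KO anti-PD-1 members. The part of such cells was not tested, and without members with at least 3 UMIs of Krt8, Krt18 and Epcam the interferon-gamma median was 0.48, with 8 genes higher and 2 lower. Fam26f was at 14.4 and 42.7 CPM and H2-M2, a class Ib MHC gene, at 12 and 41.8. The rule also named Prune1, Pik3r2, Emilin1, Prps2, Nr2f6, Ptov1 and Bola1.

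In sums over all members, type I interferon genes did not follow under KO tumours. Of 14 measured, 2 were higher and 6 lower at 1.5-fold, with a median of -0.17, where 9.20% of all genes were higher and 13.4% lower. This rested on single cells: leaving out for each gene the cell with the most UMIs in each library gave 3 higher and 1 lower of 11, a median of 0.05. Ifit3 was at 6.99, 12.6, 21.6 and 1.90 CPM and Isg15, the ubiquitin-like protein of this response, at 58.7, 89.7, 71.2 and 39.9, lowest in KO anti-PD-1. Thinned, only 1 gene of the list could be measured. In the same pair the low and Arg1 macrophages had type I medians of 1.03 and 0.99. Among the named lower genes in KO anti-PD-1 was Slc15a2, at 29.6 CPM in KO IgG and 5.70 in KO anti-PD-1, the same direction as under WT tumours. The others were Lrrc14b, Nostrin, Pibf1, Spata6, Mettl16, Ctr9, Mapkap1, Mctp1, Dtx4, Lcorl and Cep350. Members of KO anti-PD-1 were the shallowest.

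Under IgG, most chemokines measured were lower in members from KO tumours than in those from WT tumours. Of 7444 genes, 137 were at least 2-fold higher in KO IgG (1.84%) and 203 lower (2.73%). Of 18 chemokines, 10 were at least 1.5-fold lower and 3 higher, a median of -0.71. Over all genes measured, 8.87% were at least 1.5-fold lower and 7.24% higher. The other macrophages did not share this: low macrophages had 6 of 17 chemokines higher and 4 lower, a median of 0.45. Arg1 macrophages had 3 of 18 higher and 5 lower, a median of -0.04. Under anti-PD-1 the same genotypes gave a median of 0.00 in members, with 6 of 19 higher and 3 lower, and the difference was not tested. Ccl2, which draws monocytes through Ccr2, was at 216.1, 145.3, 36.0 and 134.8 CPM, lowest in KO IgG, or 6.0 times lower there than in WT IgG (log2 -2.59, -3.07 to -2.13). Pf4 was at 258.1, 109.3, 60.8 and 88.3 CPM, 4.24 times lower (log2 -2.09, -2.46 to -1.73) and highest in WT IgG. Ccl8 was at 265.0, 279.8, 24.0 and 191.8 CPM and Ccl24 at 102.1, 13.3, 15.2 and 46.5. Unlike Ccl2 and Pf4, neither met every line of the naming rule, which includes a limit on the share of UMIs in a single cell. Ccl5, a chemokine also made by T and NK cells, was at 156.0, 464.8, 45.6 and 390.2, higher in both anti-PD-1 libraries. The adhesion molecule Vcam1 was at 47.6 CPM in WT IgG but 17.6 with KO tumours.

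The genes named as higher in KO IgG had varied roles. Mmp12, macrophage elastase, was at 544.1, 483.8, 1566 and 695.8 CPM, highest in KO IgG, or 2.88-fold above WT IgG (log2 1.53, 1.40 to 1.65). With each cell thinned to 2000 UMIs that log2 ratio was 0.37. Chil3 was 3.28-fold higher (log2 1.71, 1.54 to 1.89), and its near-identical relatives make its counting uncertain. The rise was not limited to members: from WT IgG to KO IgG, Chil3 went from 174.5 to 800.2 CPM in low macrophages and from 109.9 to 708.4 in Arg1 macrophages. In the few alveolar cells it went from 8753 to 22350. Inhba was 3.75-fold higher (log2 1.91, 1.29 to 2.56). Mfge8 was at 109.8, 75.2, 238.4 and 219.3 CPM, higher in both KO libraries, or 2.17-fold under IgG (log2 1.12, 0.84 to 1.41). Angptl4, an inhibitor of lipoprotein lipase, was at 7.69 CPM under WT and 24.8 under KO tumours with IgG. Jun, a stress-responsive transcription factor, was at 162.2 and 329.7. Lepr, Plpp3, Haghl, Cipc and Gadd45g were also named higher, Lepr on 3 UMIs in WT IgG. Named lower were Inppl1, Pmp22, Mthfsd, Rapsn, Dnajc11, Ubqln2, Cox6a2 and Atf5. The complement and uptake list had 1 gene higher and 6 lower of 20, a median of -0.22, so Mfge8 went against its list. Matrix and protease genes, to which Mmp12 belongs, had 1 higher and 3 lower of 17, a median of -0.14.

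Under anti-PD-1, interferon genes of members were lower with KO tumours than with WT tumours. Past 2-fold, 246 of 7415 genes lay on the higher side (3.32%) and 323 on the lower (4.36%). At 1.5-fold, 14 of 27 interferon-gamma genes were lower and 0 higher, a median of -0.59, and 13 of 16 type I genes were lower and 0 higher, a median of -1.02. Thinned to 2000 UMIs, the type I list kept 1 measured gene, at -0.09. Over all genes measured, 14.6% were at least 1.5-fold lower and 10.2% higher, with a median of -0.06. Cxcl9 was 5.73 times lower (log2 -2.52, -2.96 to -2.10). Iigp1, an interferon-induced GTPase, was at 34.7 CPM in WT anti-PD-1 and 6.65 in KO anti-PD-1, and the chemokine Ccl12 at 80.8 and 17.1. Tlr8, an RNA sensor of endosomes, was at 13.3 and 1.90. The low and Arg1 macrophages had interferon-gamma medians of -0.55 and -0.16 in this pair.

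Further lower genes in KO anti-PD-1 were Hgf, hepatocyte growth factor, at 26.5 CPM in WT anti-PD-1 and 6.65 in KO anti-PD-1, and Pros1, protein S, a ligand of Mertk, at 27.8 and 7.59. Plau, L3mbtl2, Rbbp8, Mapkap1, Tnip2 and Brd9 were also named. The complement and uptake list had 8 of 19 genes lower and 1 higher at 1.5-fold, where 14.6% of all genes were lower and 10.2% higher. Higher by the naming rule were 7 genes. Gstm1 was at 185.0 CPM in WT anti-PD-1 and 397.8 in KO anti-PD-1, and the calcium-binding protein S100a1 at 253.2 and 532.6. Ltc4s, leukotriene C4 synthase, Prune1, Hectd3, Ocrl and Trim28 were the others. Monocyte genes had a median of 0.49 with 4 of 10 higher, and 0.16 without members with at least 3 UMIs of Krt8, Krt18 and Epcam. Without those cells 157 genes were higher and 378 lower by 2-fold, or 29.3% of the genes past 2-fold on the higher side against 43.2% with them.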

How the data were processed

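The authors deposited 1 matrix of whole-number UMI counts per library, with no normalization, 4 libraries in all. Per the file headers, Cell Ranger 3.0.0 wrote these matrices. Beside it, bcl2fastq and the build hg19 are listed in the submitters' processing notes, although every gene in the matrices has a mouse identifier, so no coordinates were taken from them. Every deposited barcode held at least 500 UMIs. Replicates were not pooled in the labels, and each group had 1 library, so no test, p-value or standard error was computed. Members were found by the rule on raw counts, their UMIs were summed per library, and levels are CPM (UMIs per 1000000 of the sum). Cells shared between libraries were not analysed here. The rule removes no doublets; an alternative left out cells with a Scrublet score of at least 0.25 (scanpy 1.11.5).

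Between libraries, genes with at least 20 UMIs in a pair were measured, and called at 2-fold; lists were counted at 1.5-fold. Named genes were at least 2-fold with an exact 95% conditional Poisson interval beyond 1.5-fold, with no cell holding over 25% of the UMIs in the higher library, at a CPM no lower than in all kept cells there, up to 12 a direction. Against other macrophages they were the 15 highest (10 for Arg1 macrophages) and 10 lowest by the least extreme of the 4 ratios. Genes of the rule, mitochondrial, ribosomal, haemoglobin, immunoglobulin, T cell receptor and unnamed gene models were left out, and a few further items are not reported here. A zero in the comparison cells was set to 3 UMIs per library and the fold given as a lower bound. Shares carry exact Clopper-Pearson intervals. Members and gene lists were chosen with earlier results of these data known. Promoters are from RefSeq (GRCm38.p6), matched by symbol. Scripts ran in python 3.11.15 with numpy 2.4.6, scipy 1.17.1 and pandas 2.3.3, TMM factors came from edgeR 4.0.16, and the steps were tested on simulated data. Alternatives changed the cell filters, the lines on C1q, on Gpnmb and Trem2 and on Arg1, the scaling, the UMI minimum and the depth (cells thinned to 2000 UMIs). Another left out the top cell of each gene. The lines on patrolling monocytes, alveolar macrophages, T cells and B cells were not changed. An alternative without cells with at least 3 UMIs of Krt8, Krt18 and Epcam was added after seeing the data.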

Additional observations from a re-analysis of the deposited data

Results flagged for a closer look

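Marker lists of other cell types were left aside here. For 8 of the remaining gene lists the median log2 ratio in members had opposite signs in 2 comparisons of the same kind and was at least 0.1 from 0 in both. None of these differences was tested, and lists with opposite signs nearer to 0 in either comparison are not given here. For anti-PD-1 against IgG, the value under WT tumours came first and that under KO tumours second in each of the following. The type I interferon list was at 0.50 and -0.17, the chemokines at -0.29 and 0.45, and matrix and protease genes at -0.13 and 0.18. Without the top cell of each gene the type I list was at 0.49 and 0.05, so its signs were no longer opposite. Cholesterol and lipid handling was at 0.11 and -0.15, Trem2 signalling at 0.14 and -0.14, and iron handling at 0.13 and -0.10. For KO against WT, with IgG first and anti-PD-1 second, the monocyte list was at -0.19 and 0.49, and hypoxia and glycolysis at -0.23 and 0.11. The median over all genes measured was between -0.06 and 0.00 in the 4 comparisons.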

How the results depend on the processing

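Depth and the UMI minimum set the counts of genes past 2-fold more than any other choice. Of the ratios of shares, 43 of 48 alternatives among kept cells and 47 of 48 among C1q macrophages stayed within the interval. The exceptions, for KO IgG against WT IgG, were 1.44 with at least 500 genes per cell, 1.48 with at least 1000 UMIs and 0.797 with no line on Arg1 (0.822 among C1q macrophages). For KO anti-PD-1 against WT anti-PD-1 they were 1.44 and 1.48 under the same limits on genes and UMIs. Counts of higher and lower genes follow in the order KO IgG against WT IgG, KO anti-PD-1 against WT anti-PD-1, WT anti-PD-1 against WT IgG and KO anti-PD-1 against KO IgG. With a minimum of 50 UMIs they were 19 and 47, 69 and 145, 41 and 23, and 66 and 80. With a minimum of 10 UMIs they were 318 and 408, 519 and 533, 334 and 321, and 524 and 495. The shares were then 3.56% and 4.57%, 5.77% and 5.92%, 3.65% and 3.51%, and 5.99% and 5.66%. With cells thinned to 2000 UMIs before the rule, which leaves fewer cells and genes to measure, they were 68 and 74, 58 and 124, 69 and 43, and 61 and 87. Of the 1786, 2104, 2143 and 1771 genes measured then, this was 3.81% and 4.14%, 2.76% and 5.89%, 3.22% and 2.01%, and 3.44% and 4.91%. Without the top cell of each gene, 158 were higher in KO anti-PD-1 than in WT anti-PD-1 and 159 higher than in KO IgG. With the mean over cells, 498 were lower in KO anti-PD-1 than in WT anti-PD-1. Without cells with Krt8, Krt18 and Epcam, 157 were higher, an alternative chosen after seeing the data. The share of higher genes among those past 2-fold then moved from 43.2% to 28.3%, 30.7% and 29.3% for KO anti-PD-1 against WT anti-PD-1. For KO anti-PD-1 against KO IgG it moved from 47.5% to 34.2%, 39.4% and 35.2%. The causes were not tested.

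The lipid-associated list turned from -0.05 to 0.09 (WT anti-PD-1 against WT IgG, thinned), and for KO anti-PD-1 against KO IgG to -0.07 (mean over cells) and -0.01 (thinned). The interferon-gamma list, thinned, was at 0.46 over 9 genes under WT tumours and 0.22 over 6 under KO tumours, and at 0.96 to 1.06 and 0.40 to 0.88 under the other settings. The type I list turned from 0.50 to -0.19 under WT tumours when thinned, over 3 genes, and for KO anti-PD-1 against WT anti-PD-1 went from -1.02 to -0.09, over 1. Against low macrophages, thinning left 1911 genes measured. Of these, 38 were higher, 36 of them among the 173, and 25 lower, 16 of them among the 86. A minimum of 50 UMIs left 53 lower, all among the 86. Against Arg1 macrophages, the minimum of 50 left 81 higher, all among the 131. Thinning left 57 higher, 33 of them among the 131, and 57 lower, 50 of them among the 132. Of named genes 493 of 511 alternatives, and of the other lists 531 of 544, moved by less than the interval or the spread set for them. No paired analysis was possible because each group had 1 library.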

Other observations

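Summed over cells with Trem2 and no Gpnmb, Cxcl9 stood at 141.9, 302.8, 73.1 and 72.3 CPM, above the cells with both genes in each library, at 35.0, 264.8, 3.87 and 40.9 (the WT library with IgG, the WT library with anti-PD-1, the KO library with IgG, the KO library with anti-PD-1). Mmp12, the elastase, was at 489.7, 479.8, 1706 and 587.9 CPM in cells with both genes and 203.4, 532.1, 815.0 and 1446 with Trem2 alone. Its place in the split thus differed by library. Arg1 macrophages of KO anti-PD-1 had 14 of 22 genes of the lipid-associated list at least 1.5-fold lower than those of KO IgG, a median of -0.76. Over all 3975 genes measured in these cells, 780 were lower and 420 higher, a median of -0.07. The members had 1 of 23 list genes lower and a median of -0.15, with 13.4% of all genes lower. Unlike the members, Arg1 macrophages were not chosen on Gpnmb, which was at 525.7 CPM in KO IgG and 27.6 in KO anti-PD-1. The difference was not tested. Ccl17, a chemokine of dendritic cells, reached at least 10 UMIs in 6 members of KO IgG, with 189 in the highest.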
